A study of Danio rerio with 12 samples.

Results

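Fibroblast growth factor (Fgf) ligands, their receptors and the feedback genes of the pathway were followed in gastrulating zebrafish embryos in which 2 T-box transcription factors, Ta and Tbx16, were knocked down together. The genes were taken by symbol: every array feature whose symbol begins with fgf, spry, spred or a numbered dusp, or equals *etv4*, *etv5a*, *etv5b* or *il17rd*. This gave 100 features of 60 genes, of 13286 genes on the array, and the feature with the highest mean over the 12 arrays stood for each gene. By their roles, 22 of the genes encode secreted Fgf ligands, 5 intracellular Fgf proteins, 7 receptors, 7 Sprouty, Spred or Sef proteins, 6 MAP kinase phosphatases, 7 atypical dual-specificity phosphatases and 2 Ets factors. The other 4 (*cep43*, *fgfr1op2*, *spryd3* and *spryd4*) share only the letters of the name and are not known parts of the pathway. The 60 are a match by symbol, and the intracellular Fgf proteins and atypical phosphatases among them need not act in the pathway either. The symbols on the array are old, and 13 further genes match only under their current symbol; among them is *etv4*, listed on the array as pea3, which is described beside the 60 but not counted among them.

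All embryos were of the AB strain and were collected whole, about 200 to a sample. Control embryos received 0.75 pmol of a standard control morpholino (MO, an antisense oligo that blocks the translation or splicing of an RNA) and double morphants 0.5 pmol of an anti-*tbx16* MO with 0.25 pmol of an anti-*ta* MO, in each case at the 1-cell stage. Each treatment was sampled at shield (6 hpf) and at 90% epiboly (9 hpf) with 3 arrays per group, 12 in all. The labels do not say if replicates were separate clutches, and p-values therefore cover the spread between these samples, which may be in part technical.

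Fgf ligands bind receptor tyrosine kinases on the cell surface together with heparan sulfate, and the receptors activate Ras and the MAP kinase Erk. Erk turns on the Ets factors *etv4*, *etv5a* and *etv5b* and a set of inhibitors that limit the signal: *spry* and *spred* genes act on the route to Erk, *il17rd* (Sef) acts at or below the receptor, and *dusp6* dephosphorylates Erk itself. In the zebrafish gastrula, Fgf signals from the margin maintain the mesoderm and T-box gene expression there, and T-box factors in turn help to keep Fgf ligands expressed. The transcripts of the inhibitors and Ets factors are therefore widely used as a readout of the pathway.

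The 12 arrays had medians of 7.06 to 7.07 on the log2 scale, and arrays of 1 group correlated at 0.9662 to 0.9897. The RNA of the targeted genes is no check of an MO, which need not remove the transcript. *tbxta* (the current symbol of *ta*) was 9.99, 10.60 and 10.50 in shield controls and 11.48, 11.36 and 11.83 in shield double morphants, and 9.44, 9.15 and 9.14 against 10.80, 11.27 and 11.08 at 90% epiboly. It was higher in the double morphants at both stages (log2 fold change 1.19 ± 0.20 SE, limma adjusted p = 0.0165, and 1.81 ± 0.20 SE, limma adjusted p = 0.000248), while *tbx16* did not pass the test at either stage (0.54 ± 0.21 SE, limma adjusted p = 0.443, and 0.37 ± 0.21 SE, limma adjusted p = 0.995). Of 9 measured markers of paraxial mesoderm, the tissue that forms the somites, 7 were lower in double morphants at each stage, led by *msgn1*, a transcription factor of the presomitic mesoderm (fell by 4.40 ± 0.15 SE at shield and by 5.58 ± 0.15 SE at 90% epiboly, limma adjusted p = 1.27e-09 and 8.85e-11).

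None of the 60 genes passed the test between double morphants and controls at either stage. limma, with Benjamini-Hochberg adjustment over all 45220 features and a threshold of 0.05, called 0 of 60 at shield, where it called 0.263% of all genes lower and 0.286% higher, and 0 of 60 at 90% epiboly, where it called 0.572% of all genes lower and 0.218% higher. At an unadjusted p under 0.05, 6 of 60 passed at shield against 8.96% of all genes, and 8 of 60 at 90% epiboly against 6.68%. No member feature passed either, of all 100 (smallest limma adjusted p = 0.166 at shield and 0.0567 at 90% epiboly). The methods' t-test with adjustment also called 0 at both stages. At 90% epiboly other fits did call members: *fgf17* passed with the replicate number as a block (limma adjusted p = 0.0248), with the 90% epiboly arrays fitted on their own and with array weights (limma adjusted p = 0.00405), and with array weights *spry2* and *fgfrl1b* passed as well (limma adjusted p = 0.0179 and 0.0124). These fits also called more features over the whole array. Of all 45220 features at 90% epiboly, the main fit called 319 and the fit on own arrays 334. The replicate block called 466 and array weights 1129. The median log2 fold change of the 60 was 0.04 at shield and 0.00 at 90% epiboly, beside 0.02 and 0.01 over all genes. The differences of the 60 ran from -0.60 to 0.47 at shield and from -0.98 to 0.65 at 90% epiboly. The change in the MO effect between the stages (the interaction) called 0 of 60, with 0.211% of all genes called, and 0 of 60 at an unadjusted p under 0.05 against 3.86% of all genes.

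**Figure D1:**
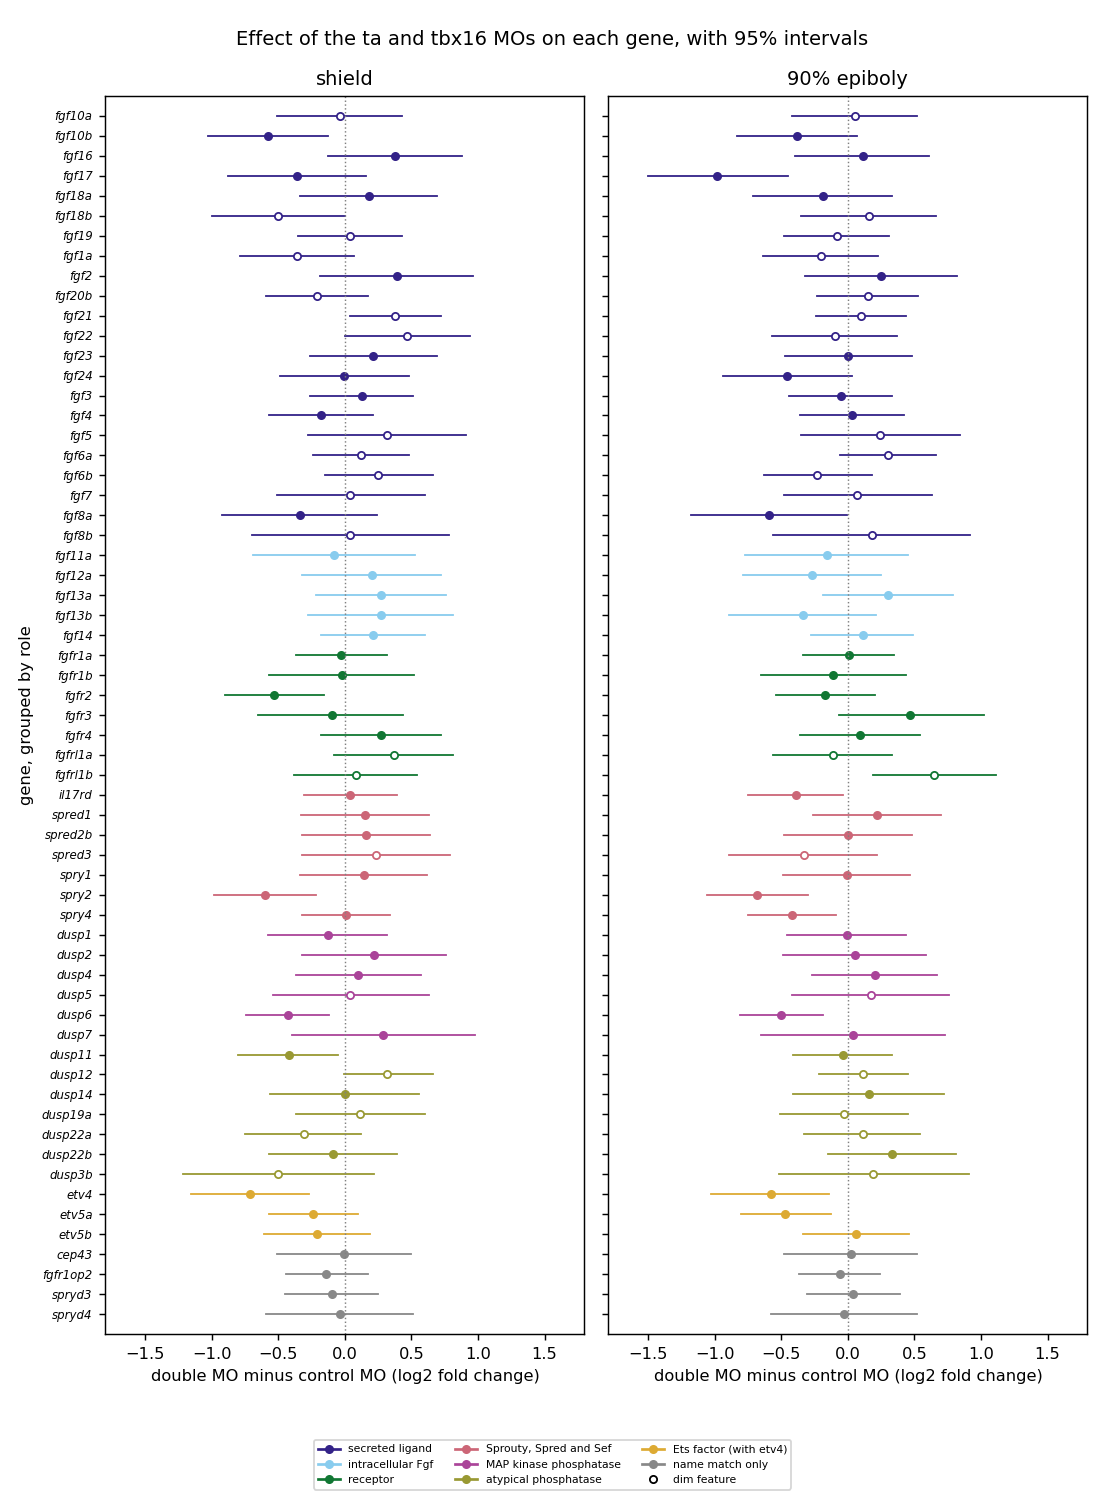
Double MO minus control MO (log2 fold change, horizontal axis) for each of the 60 genes and for *etv4*, at shield (left) and at 90% epiboly (right), coloured by role. Points are limma estimates from 3 against 3 samples, lines are 95% intervals, and open points mark dim features; none of the 60 genes passed the test, and *fgf17* at 90% epiboly lies farthest from 0, at -0.98.

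The number of arrays limits the precision. The deposited values carry no detection call, and 20 of the 60 genes had a mean under 6.56 (the 40th percentile of feature means); these are called dim, and their signal may be background.

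Among the secreted ligands, *fgf17*, which is expressed at the margin, had the smallest p of the 60 genes at 90% epiboly, each taken at the feature that stands for it. Its log2 signal at 90% epiboly was 7.50, 7.39 and 7.60 in controls and 6.66, 6.43 and 6.47 in double morphants. The groups did not overlap. The difference was -0.98 ± 0.24 (SE; 95% interval -1.50 to -0.45), with a limma adjusted p of 0.133, so it did not pass; with the replicate number as a block it did (limma adjusted p = 0.0248), though the numbers were not taken as pairs at this stage. At shield *fgf17* was 8.32, 8.72 and 8.88 in controls and 7.65, 8.73 and 8.46 in double morphants, with overlapping groups and a difference of -0.36 ± 0.24 (SE; 95% interval -0.88 to 0.16; limma adjusted p = 0.717). Its second feature had the same sign at both stages (-0.63 and -0.57) without passing. Without shield double MO replicate 1, the lowest of the shield values, the adjusted p at 90% epiboly was 0.021, since that array enters the shared estimate of the spread.

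*fgf8a*, the ligand of the margin and later of the midbrain-hindbrain boundary, was 9.20, 8.90 and 9.68 in controls and 8.26, 8.89 and 8.86 in double morphants at 90% epiboly. The groups were barely apart, and the difference was -0.59 ± 0.27 (SE; 95% interval -1.18 to -0.01; limma adjusted p = 0.869). At shield the groups overlapped, at 9.82, 8.87 and 9.58 against 9.30, 8.89 and 9.07 (-0.34 ± 0.27 SE, limma adjusted p = 0.771). The groups of its second feature overlapped at both stages, with differences of -0.46 at shield (limma adjusted p = 0.649) and -0.28 at 90% epiboly. The labels do not pair the samples, and the numbers were read as pairs at shield from these same data. By that pairing the second feature was lower in each shield pair, a trait not counted over all genes. At shield this feature was 8.55, 7.71 and 8.33 in controls and 8.08, 7.24 and 7.87 in double morphants. The feature that stands for *fgf8a* was lower in the shield pairs numbered 1 and 3 (-0.53 and -0.52) but not in number 2 (0.02). *fgf24*, which acts with *fgf8a* in posterior mesoderm, was 8.30, 8.42 and 7.86 in controls and 7.40, 8.08 and 7.74 in double morphants at 90% epiboly, with a difference of -0.46 ± 0.22 (SE; 95% interval -0.94 to 0.03; limma adjusted p = 0.932), and at shield the difference was -0.01 ± 0.22 (SE). Over the 22 ligands, 2 were lower without overlap at 90% epiboly (*fgf17* and *fgf8a*) and 2 higher (*fgf21* and *fgf6a*, both dim); 7.45% of all genes were lower and 7.67% higher without overlap at that stage.

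*fgf3*, a ligand of the margin and hindbrain, had differences of 0.13 ± 0.18 SE (95% interval -0.26 to 0.51) at shield and -0.05 ± 0.18 SE (95% interval -0.44 to 0.33) at 90% epiboly. *fgf4* had differences of -0.18 ± 0.18 SE (95% interval -0.57 to 0.21) and 0.03 ± 0.18 SE (95% interval -0.36 to 0.42), but its second, dim feature had the opposite sign at shield (0.70 ± 0.23 SE, limma adjusted p = 0.35). *fgf8b* and *fgf10a* were dim, with values of 5.43 to 6.79 and of 5.57 to 6.48 over the 12 arrays. *fgf10b*, the paralogue of *fgf10a*, was 7.24, 7.02 and 6.77 in shield controls and 6.51, 6.40 and 6.38 in shield double morphants. Its groups did not overlap, and the difference of -0.58 ± 0.21 (SE; 95% interval -1.03 to -0.13) did not pass (limma adjusted p = 0.409). The second, dim feature of *fgf10b* had overlapping groups at shield and a difference of 0.02 ± 0.17 (SE). At shield 1 ligand was lower without overlap and 2 higher (*fgf21* and *fgf22*, both dim), where 5.9% of all genes were lower and 5.93% higher without overlap.

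None of the 7 receptors passed. *fgfr1a*, a receptor tied to mesoderm maintenance, was 15.59 to 16.13 on all 12 arrays at the feature that stands for it, near the upper end of the scale (16.25 for the highest value of any feature). Its 3 other features had means of 7.01 to 7.67. Their differences were -0.59, -0.47 and -0.30 at shield and -0.23, -0.28 and -0.25 at 90% epiboly, none past the test. The feature with a mean of 7.01, listed on the array as sb:cb231, was lower without overlap at both stages. It was 7.22, 7.18 and 7.30 in shield controls and 6.76, 6.91 and 7.12 in shield double morphants. At 90% epiboly it was 6.98, 7.10 and 7.10 against 6.69, 6.93 and 6.81. Over all genes 1.43% were lower without overlap at both stages. *fgfr2* was 13.12, 13.22 and 13.49 in shield controls and 12.89, 12.43 and 12.93 in shield double morphants. The groups did not overlap, and the difference was -0.53 ± 0.17 (SE; 95% interval -0.90 to -0.16; limma adjusted p = 0.336). Over the 6 features of *fgfr2* the difference at shield was negative at 4 (-0.53 at the brightest, then -0.24, -0.29 and -0.24). It was positive at the others (0.09 and 0.41). With the features averaged it was -0.13, so its size and sign depend on the feature.

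*fgfrl1b*, a receptor-like protein that lacks the kinase, was 5.96, 5.95 and 6.02 in controls and 6.08, 6.86 and 6.95 in double morphants at 90% epiboly. The feature was dim, the groups did not overlap, and the difference of 0.65 ± 0.21 (SE; 95% interval 0.19 to 1.11) did not pass (limma adjusted p = 0.43). Without 90% epiboly double MO replicate 1, the lowest of the double morphants, the adjusted p was 0.0361. The second feature of *fgfrl1b*, also dim, was 5.73, 5.69 and 5.99 against 6.44, 6.26 and 6.23, without overlap. Its difference had the same sign and did not pass either (0.50 ± 0.15 SE, limma adjusted p = 0.313). *fgfr3* was 8.32, 8.82 and 8.86 against 9.37, 8.97 and 9.07 at 90% epiboly, also without overlap (0.47 ± 0.25 SE, 95% interval -0.07 to 1.02, limma adjusted p = 0.976), but its second feature had the opposite sign (-0.16). *fgfr4* (0.27 and 0.09), *fgfr1b* (-0.02 and -0.11) and the dim *fgfrl1a* (0.37 and -0.11) did not pass at shield or at 90% epiboly.

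**Figure D2:**
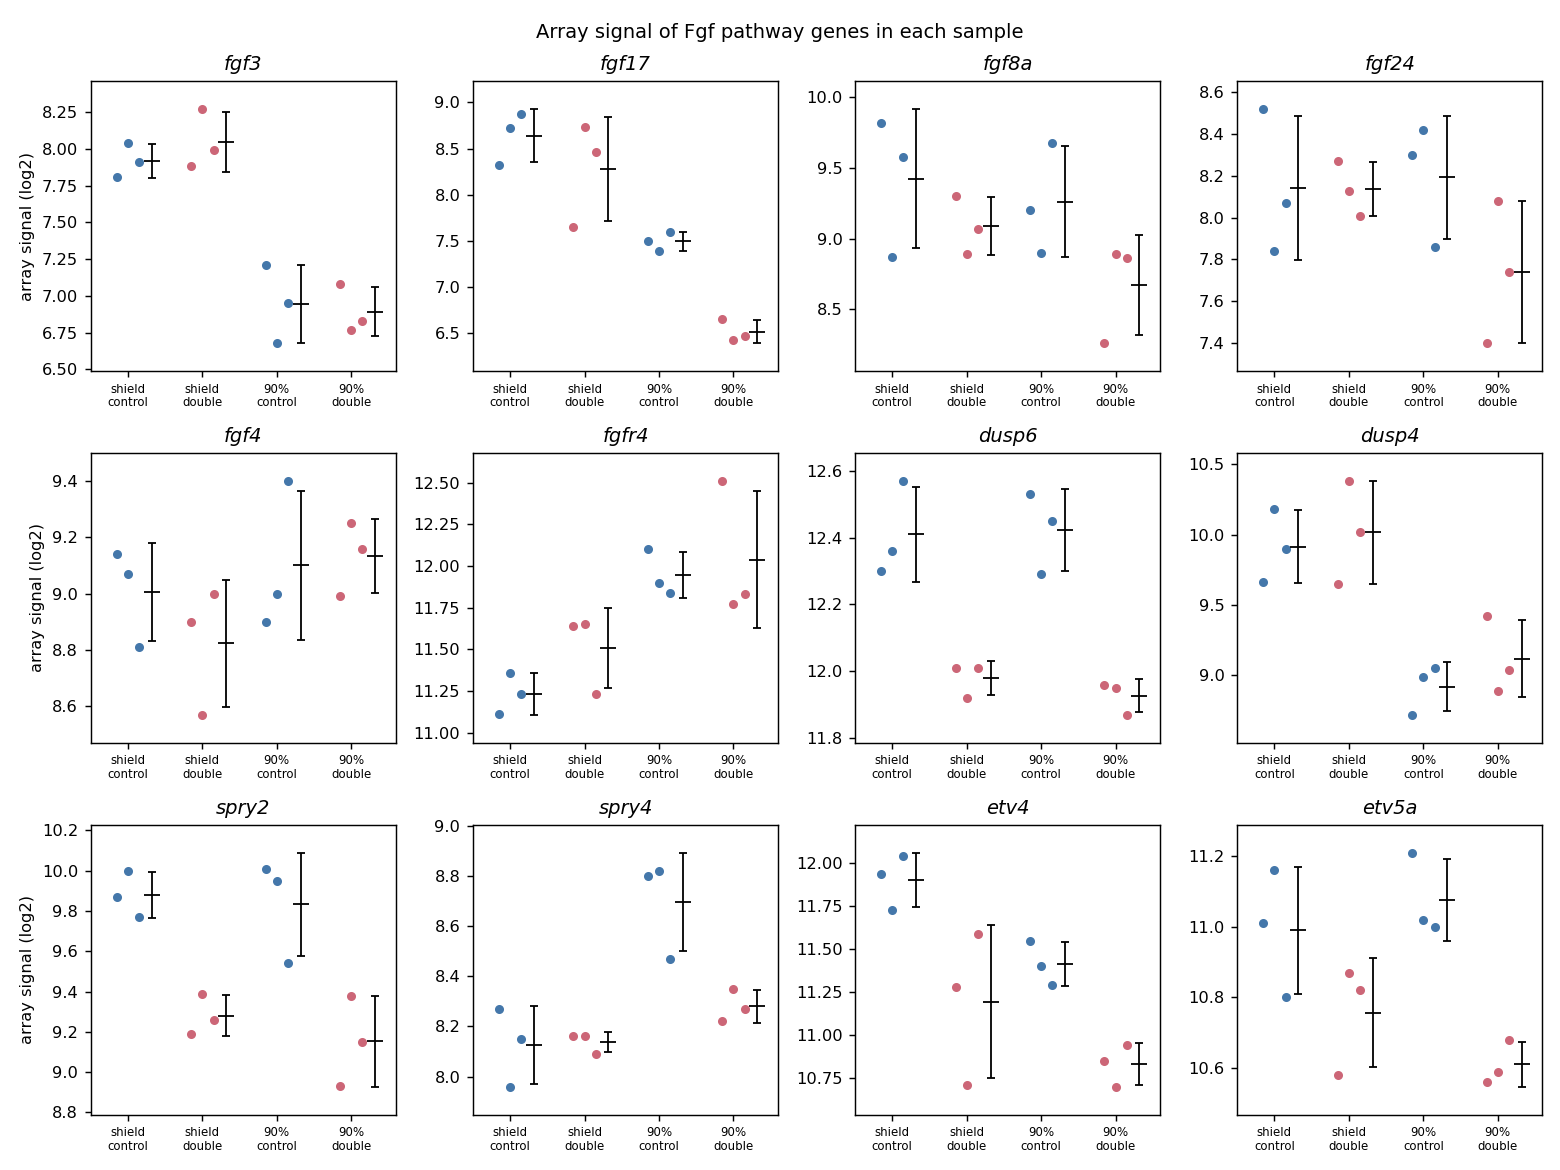
Log2 array signal (vertical axis, own scale in each panel) of 12 genes in the 4 groups; points are the 3 samples of a group, and the bar beside them is the mean with its SD. At the features shown, *dusp6*, *spry2* and *etv4* had every double morphant under every control of the same stage. *fgf3* and *dusp4* were separated by stage and not by treatment.

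The feedback genes held the 2 genes of the 60 that were lower without overlap at both stages at the feature that stands for them, *dusp6* and *spry2*; 1.43% of all genes were. *dusp6*, the Erk phosphatase, was 12.30, 12.36 and 12.57 in shield controls and 12.01, 11.92 and 12.01 in shield double morphants. At 90% epiboly it was 12.53, 12.29 and 12.45 against 11.96, 11.95 and 11.87. The differences were of like size, -0.43 ± 0.14 (SE; 95% interval -0.74 to -0.12; limma adjusted p = 0.351) and -0.50 ± 0.14 (SE; 95% interval -0.81 to -0.19; limma adjusted p = 0.272), and neither passed. *spry2*, a Sprouty inhibitor, was 9.87, 10 and 9.77 in shield controls and 9.19, 9.39 and 9.26 in shield double morphants, and 10.01, 9.95 and 9.54 against 8.93, 9.38 and 9.15 at 90% epiboly. The differences were -0.60 ± 0.18 (SE; 95% interval -0.98 to -0.22; limma adjusted p = 0.252), the smallest p of the 60 genes at shield by the same choice of features, and -0.68 ± 0.18 (SE; 95% interval -1.06 to -0.30; limma adjusted p = 0.162).

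At 90% epiboly 3 more feedback and Ets genes were lower without overlap, as 7.45% of all genes were. Over all 60 genes, 7 were lower and 5 higher without overlap at that stage. *spry4*, the Sprouty gene of the margin, was 8.80, 8.82 and 8.47 in controls and 8.22, 8.35 and 8.27 in double morphants (-0.42 ± 0.15 SE, 95% interval -0.75 to -0.09, limma adjusted p = 0.602). *il17rd* was 10.13, 10.09 and 9.93 against 9.58, 9.73 and 9.67 (-0.39 ± 0.16 SE, 95% interval -0.75 to -0.04, limma adjusted p = 0.758), and its 3 features were all negative. *etv5a* was 11.21, 11.02 and 11.00 against 10.56, 10.59 and 10.68 (-0.47 ± 0.16 SE, 95% interval -0.80 to -0.13, limma adjusted p = 0.459), and all 6 of its features were negative, from -0.74 (limma adjusted p = 0.0567) to -0.19. At shield the groups of these 3 genes overlapped at the same features (0.01, 0.04 and -0.24). The second feature of *spry4* differed from this. It was 8.26, 7.76 and 7.90 in shield controls and 7.23, 7.46 and 7.35 in shield double morphants, without overlap (-0.62 ± 0.16 SE, limma adjusted p = 0.166, the smallest of any member feature at that stage), and its difference at 90% epiboly was -0.54 ± 0.16 (SE; limma adjusted p = 0.299). With the features of the gene averaged, the difference at shield was -0.31 and did not pass. The interaction did not pass for any of the 3 (limma adjusted p = 1 for each), so a difference between the stages was not shown.

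*etv4*, outside the 60 by its old symbol, was lower without overlap at both stages at its brighter feature. It was 11.94, 11.73 and 12.04 in shield controls and 11.28, 10.71 and 11.59 in shield double morphants, and 11.55, 11.40 and 11.29 against 10.85, 10.70 and 10.94 at 90% epiboly. The differences were -0.71 ± 0.21 (SE; 95% interval -1.16 to -0.27; limma adjusted p = 0.243) and -0.58 ± 0.21 (SE; 95% interval -1.03 to -0.14; limma adjusted p = 0.544). The second feature of *etv4* was negative too (-0.78 at shield and -0.19 at 90% epiboly), and its groups overlapped at both stages. At shield it was 11.03, 10.62 and 11.40 in controls and 10.30, 9.72 and 10.70 in double morphants. By the pairing read from the data, it was lower in each shield pair, a trait not counted over all genes. At 90% epiboly, where the numbers were not taken as pairs, the lowest control (9.48) was under all double morphants (9.90 to 10.11). The third Ets factor, *etv5b*, showed no such separation (-0.21 ± 0.18 SE at shield and 0.06 ± 0.18 SE at 90% epiboly).

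The other inhibitors were not separated in this way. *spry1* (0.14 and -0.01), *spred1* (0.15 and 0.22), *spred2b* (0.16 and 0.00) and the dim *spred3* (0.23 and -0.33) had 95% intervals that included 0 at both stages. So did the MAP kinase phosphatases *dusp1* (-0.13 and -0.01), *dusp4* (0.10 and 0.20) and the dim *dusp5* (0.04 and 0.17). Of the 7 Sprouty, Spred and Sef genes, 1 was negative at shield and 6 were negative at 90% epiboly, with medians of 0.14 and -0.33. Over all genes, 6348 and 6385 of 13286 were negative. The 6 include *spry1* and *spred2b*, both about 0, and the dim *spred3*. The interaction called none of these genes, so the signs do not show a difference between the stages. Over all 60 genes, 5 were lower and 3 higher without overlap at shield, and 7 lower and 5 higher at 90% epiboly, to be read against the shares of all genes given above (5.9% and 5.93%, 7.45% and 7.67%). Among the 13 genes found only by current symbol, *dusp23a*, a dim phosphatase feature at 6.24, 6.54 and 6.49 in shield controls and 5.43, 5.57 and 5.71 in shield double morphants, passed (fell by 0.86 ± 0.16 SE, limma adjusted p = 0.0268).

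Whole embryos were measured, so fewer cells of a type and less RNA per cell cannot be told apart. The summed linear signal of the 9 paraxial mesoderm markers was 8130 to 11400 in shield controls and 1220 to 1530 in shield double morphants, and 14100 to 17200 against 1110 to 1330 at 90% epiboly. None of the markers of notochord (6 measured), midbrain-hindbrain boundary (4), anterior neural tissue (6), enveloping layer (7), endoderm (5), yolk syncytial layer (4) or germ cells (5) passed between the treatments at either stage. Markers that did not pass may still differ. At shield and 90% epiboly the medians were -0.07 and -0.60 for notochord, with 3 and 4 of 6 negative. For endoderm they were -0.27 and -0.14, with 5 of 5 negative at both stages. The other tissues had medians of -0.20 to 0.26. At shield 2 of the 6 anterior neural markers were negative, *six3b* among them. Its shield controls held an outlying value, 15.72 in number 2 beside 7.56 and 6.85. The other features of *six3b* were lower without overlap at shield (-0.90 and -0.80) and did not pass (limma adjusted p = 0.301 and 0.388). None of 5 targets of p53, which off-target MO effects can induce, passed either (medians of 0.13 and 0.35). The part of the loss of paraxial mesoderm RNA in the values of *dusp6*, *spry2*, *etv4* and *fgf17* was not tested.

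Beyond the symbol rule, no gene of 3 further lists of the pathway passed between the treatments. Of 36 listed genes of the receptor adaptors, Ras, Raf, Mek and Erk, 20 were measured and 0 passed at either stage (medians of -0.01 and 0.09). Of 26 listed genes that make or edit heparan sulfate proteoglycans, 20 were measured and 0 passed (medians of -0.06 and 0.08). Of 11 immediate-early genes, which Erk can induce within minutes, 0 passed (medians of 0.07 and 0.03).

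From shield to 90% epiboly the family changed in both directions. In control embryos 11 of 60 genes passed: 6 were lower at 90% epiboly, where 8.29% of all genes were, and 5 higher, where 7.2% of all genes were. In double morphants 4 were lower and 4 higher, beside 8.23% and 7.89% of all genes. These shares are near those of all genes, so the count says nothing particular to the family. Without overlap between the stages, 10 were lower and 11 higher in controls, beside 16.4% and 16.5% of all genes, and 8 lower and 13 higher in double morphants, beside 18.8% and 18%. The genes that passed in both treatments numbered 5 (of the 11 and of the 8): *fgf17*, *fgf3*, *dusp4* and *dusp1* fell and *fgf13a* rose. The 2 comparisons use different samples, and the difference between them is the interaction, which called none of the 60. With each of the 12 arrays left out in turn, *fgf3*, *fgf17* and *fgf13a* passed in all 12 fits in both treatments, *dusp4* in controls and *fgfr2* in double morphants. The other calls were less firm: in controls *dusp11* passed in 9 of 12 fits, *dusp1* and *spry4* in 8, *fgf16* in 7, *fgfr4* in 6, *etv5b* in 4 and *fgf12a* in 3, and in double morphants *dusp4* and *fgfrl1b* in 8, *dusp1* in 4 and *dusp22b* in 3.

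**Figure D3:**
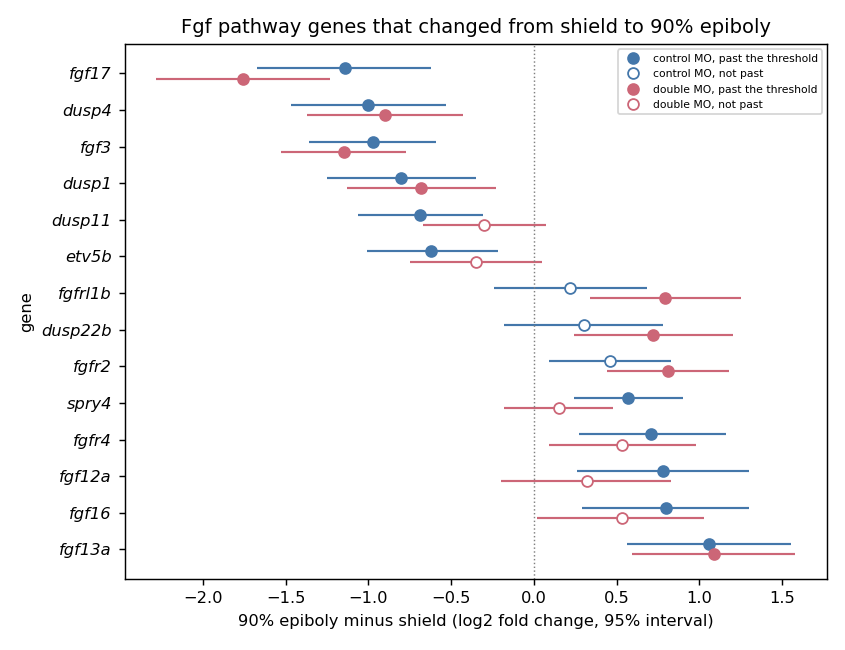
90% epiboly minus shield (log2 fold change, horizontal axis) of the 14 genes that passed in control MO embryos (blue) or double morphants (red). Points are limma estimates with 95% intervals, filled where the test passed; *fgf17* had the largest fall in both treatments, -1.14 and -1.76.

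Of the ligands, *fgf17* and *fgf3* fell. *fgf3* went from 7.81, 8.04 and 7.91 to 7.21, 6.68 and 6.95 in controls and from 7.88, 8.27 and 7.99 to 7.08, 6.77 and 6.83 in double morphants. The groups did not overlap, and the changes were -0.97 ± 0.18 (SE; limma adjusted p = 0.0032) and -1.15 ± 0.18 (SE; limma adjusted p = 0.00119). *fgf17*, with the values given above, changed by -1.14 ± 0.24 (SE; limma adjusted p = 0.00765) in controls and by -1.76 ± 0.24 (SE; limma adjusted p = 0.000557) in double morphants. Both features of each gene passed in both treatments. *fgf16*, which zebrafish need for the pectoral fin bud, rose in controls, from 7.00, 7.79 and 7.55 to 8.15, 7.94 and 8.65 (0.80 ± 0.23 SE, limma adjusted p = 0.0398). *fgf8a*, *fgf4* and *fgf24* had changes of -0.16, 0.10 and 0.05 in controls, none past the test.

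The phosphatases that fell were *dusp4* and *dusp1*, both nuclear MAP kinase phosphatases, and *dusp11*, an RNA phosphatase by its activity. *dusp4* went from 9.66, 10.18 and 9.90 to 8.72, 8.99 and 9.05 in controls (-1.0 ± 0.22 SE, limma adjusted p = 0.00884) and from 9.65, 10.38 and 10.02 to 9.42, 8.89 and 9.04 in double morphants (-0.90 ± 0.22 SE, limma adjusted p = 0.0165). *dusp1* changed by -0.80 ± 0.21 SE (limma adjusted p = 0.0233) in controls and by -0.68 ± 0.21 SE (limma adjusted p = 0.0486) in double morphants. The second feature of *dusp1* passed in double morphants (-1.11) but not in controls (-0.52, limma adjusted p = 0.124). *dusp11* passed in controls (-0.69 ± 0.17 SE, limma adjusted p = 0.0187), as did the Ets factor *etv5b*, which went from 13.07, 13.17 and 13.50 to 12.94, 12.44 and 12.52 (-0.62 ± 0.18 SE, limma adjusted p = 0.0433). Both calls were lost with each pair of groups fitted on its own arrays. The other features of *dusp11* changed by -0.47 and -0.45 in controls and did not pass, and its call was lost with the features averaged. *dusp6* and *spry2* did not change with stage in controls past the test (0.01 ± 0.14 SE, 95% interval -0.30 to 0.32, and -0.05 ± 0.18 SE, 95% interval -0.42 to 0.33).

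*spry4* rose in control embryos, from 8.27, 7.96 and 8.15 to 8.80, 8.82 and 8.47 (0.57 ± 0.15 SE, limma adjusted p = 0.0265). In double morphants it went from 8.16, 8.16 and 8.09 to 8.22, 8.35 and 8.27, a change of 0.15 ± 0.15 (SE; limma adjusted p = 0.592). The difference between these changes was -0.42 ± 0.22 (SE; 95% interval -0.89 to 0.04; limma adjusted p = 1) and did not pass. The second feature of *spry4* did not change with stage past the test, at 0.25 ± 0.16 SE in controls (limma adjusted p = 0.371) and 0.33 ± 0.16 SE in double morphants (limma adjusted p = 0.21), and the difference between these had the opposite sign (0.08 ± 0.23 SE). With the features averaged the rise in controls did not pass.

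Of the intracellular Fgf proteins, which are not secreted and are best known as partners of sodium channels in neurons, all 5 had positive changes in both treatments (medians of 0.67 and 0.47), as 39.1% of all genes did. *fgf12b*, a further gene of this kind that is found only by its current symbol, went the other way in controls, from 9.43, 10.21 and 10.03 to 9.39, 9.09 and 8.60 (-0.86 ± 0.24 SE, limma adjusted p = 0.0326). Its change in double morphants was -0.35 ± 0.24 (SE; limma adjusted p = 0.394), and its second feature did not pass in either treatment (0.14 and 0.06). *fgf13a* went from 7.31, 7.25 and 7.04 to 8.45, 8.0 and 8.32 in controls (1.06 ± 0.23 SE, limma adjusted p = 0.00834) and from 7.82, 7.70 and 6.89 to 8.47, 8.73 and 8.46 in double morphants (1.09 ± 0.23 SE, limma adjusted p = 0.00768). Its second feature, with changes of 0.10 and 0.31, did not pass. *fgf12a* rose in controls (0.78 ± 0.24 SE, limma adjusted p = 0.0488), a call that ended with the replicate number as a block (limma adjusted p = 0.0667). The other 3 did not pass in either treatment, *fgf14* in controls by little (0.58 ± 0.18 SE, limma adjusted p = 0.0512).

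Of the 7 receptors, 1 rose in controls and 2 in double morphants, beside 7.2% and 7.89% of all genes. *fgfr4* rose in controls, from 11.11, 11.36 and 11.23 to 12.10, 11.90 and 11.84 (0.71 ± 0.21 SE, limma adjusted p = 0.0377). Its second feature changed by 0.24 and did not pass. The second feature of *fgfr3* passed in controls (0.75), while the one that stands for the gene did not (0.13 ± 0.25 SE, limma adjusted p = 0.812). In double morphants *fgfr2*, described next, and *fgfrl1b* (0.79 ± 0.21 SE, limma adjusted p = 0.0267) passed, as did an atypical phosphatase, *dusp22b* (0.72 ± 0.22 SE, limma adjusted p = 0.048). The second feature of *fgfrl1b* passed too (0.68 ± 0.15 SE, limma adjusted p = 0.0104), and both of its features are dim. The call of *dusp22b* was also lost with cyclic loess, with trend and robust variance, with its features averaged, with the methods' t-test after adjustment and with both shield arrays numbered 1 left out, and its second, dim feature changed by -0.16 (limma adjusted p = 0.737).

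*fgfr2*, an Fgf receptor of epithelial and neural tissue, had features that differed in the size of the change. The brightest feature, which stands for the gene by the rule, went from 13.12, 13.22 and 13.49 to 13.74, 13.81 and 13.65 in controls, a change of 0.46 ± 0.17 (SE; limma adjusted p = 0.103) that did not pass. All 5 of its other features rose in controls, by 0.93 to 1.61. The largest change was at the feature with a mean of 9.03, which went from 8.32, 8.21 and 7.93 to 9.58, 9.83 and 9.89 (1.61 ± 0.18 SE, limma adjusted p = 0.000155). In double morphants 5 of the 6 features passed, the brightest among them (0.81 ± 0.17 SE, limma adjusted p = 0.00805), with the exception at 0.48. With the 6 features averaged, the gene passed in controls too (1.03, limma adjusted p = 0.003).

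**Figure D4:**
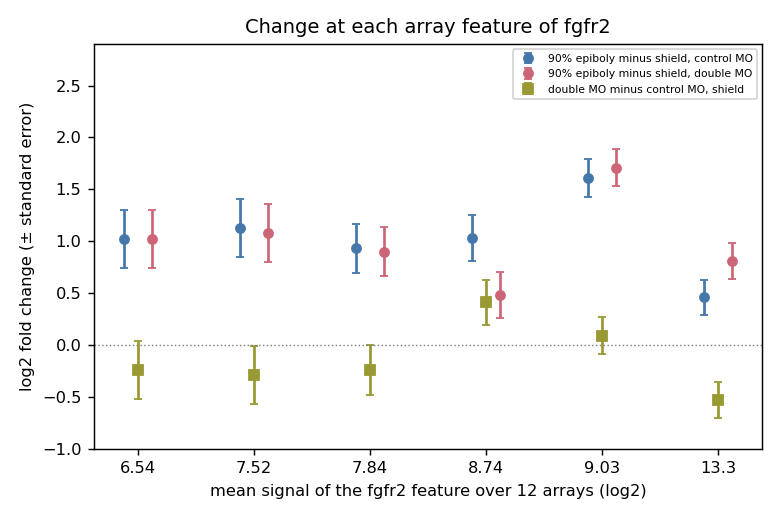
Log2 fold changes with their SE (vertical axis) at each of the 6 array features of *fgfr2*, ordered by mean log2 signal (horizontal axis, evenly spaced). Circles are 90% epiboly minus shield in controls (blue) and double morphants (red), squares double MO minus control MO at shield; the stage changes are positive at all 6 features, and the MO difference is negative at 4.

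Outside the symbol rule, the cascade list had 2 of 20 genes lower at 90% epiboly in controls, *ptpn11a* (the Shp2 phosphatase that passes the receptor signal to Ras, -0.78 ± 0.15 SE, limma adjusted p = 0.00352) and *map2k1* (Mek1, -0.85 ± 0.19 SE, limma adjusted p = 0.00957). Both passed in double morphants too, with *nras* lower and *braf* higher. Of the 20 heparan sulfate genes, 3 were lower in controls (*gpc1b*, *sdc4* and *sulf1*, a sulfatase that edits the chains Fgf binds) and 2 higher (*hs6st1b* and *gpc1a*). In double morphants 1 was lower (*sulf1*) and 4 higher (*hs6st1b*, *hs6st3b*, *gpc1a* and *sulf2b*). Over all genes 8.29% were lower and 7.2% higher in controls, and 8.23% and 7.89% in double morphants. Counts this small in 20 genes say nothing particular to either list. Of the immediate-early genes *ier2b* was lower in controls (-0.91 ± 0.19 SE, limma adjusted p = 0.00727), and *ier2b* and *jun* were lower in double morphants.

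For many genes that changed with stage, the shield samples numbered 1 stood apart from those numbered 2 and 3 in both treatments. *otx2b*, a head gene that rose from shield to 90% epiboly, was 9.62, 7.75 and 8.12 in the shield controls numbered 1 to 3 and 10.01, 8.19 and 8.67 in the double morphants, and 11.00 to 11.77 in all 90% epiboly samples. *zic1* was 7.67, 6.59 and 6.52 and 7.91, 6.85 and 7.22 at shield and 9.07 to 9.85 at 90% epiboly. These genes were chosen for display after their values were seen. The paraxial mesoderm marker *myf5*, which also rose in controls (1.22 ± 0.32 SE, limma adjusted p = 0.023), went another way. Its nearest shield sample was number 2 in controls and number 3 in double morphants. Of the 2057 genes that passed between the stages in controls, the shield double morphant nearest to the 90% epiboly mean was number 1 for 59.3%, number 2 for 27.9% and number 3 for 12.8%. Of the 2142 that passed in double morphants, the nearest shield control was number 1 for 55.9%.

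The Fgf genes that passed between the stages carried the same split in part. Of the 11 that passed in controls, double morphant number 1 at shield was the nearest for 7 (63.6%, beside 59.3% of all genes that passed). Of the 8 that passed in double morphants, control number 1 was the nearest for 6 (75%, beside 55.9%). With so few genes, these shares say nothing particular to the family. For *dusp11*, *fgf16*, *fgfr4*, *dusp22b* and *fgfr2* the nearest shield sample was number 2 or 3 in both treatments. *fgf17* at shield was 8.32 in control number 1 beside 8.72 and 8.88, and 7.65 in double morphant number 1 beside 8.73 and 8.46. *dusp4* was 9.66 and 9.65 in the samples numbered 1, beside 9.90 to 10.38 in the other 4. With both arrays left out, an alternative chosen after seeing the data, 6 genes were lower and 5 higher between the stages in controls, but *fgf16*, *fgfr4* and *dusp11* no longer passed (limma adjusted p = 0.127, 0.0879 and 0.0531). In that fit *fgf17* passed between the treatments at 90% epiboly (limma adjusted p = 0.00744), and none of the 60 passed at shield. The part of this split in the values was not tested further.

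**Figure D5:**
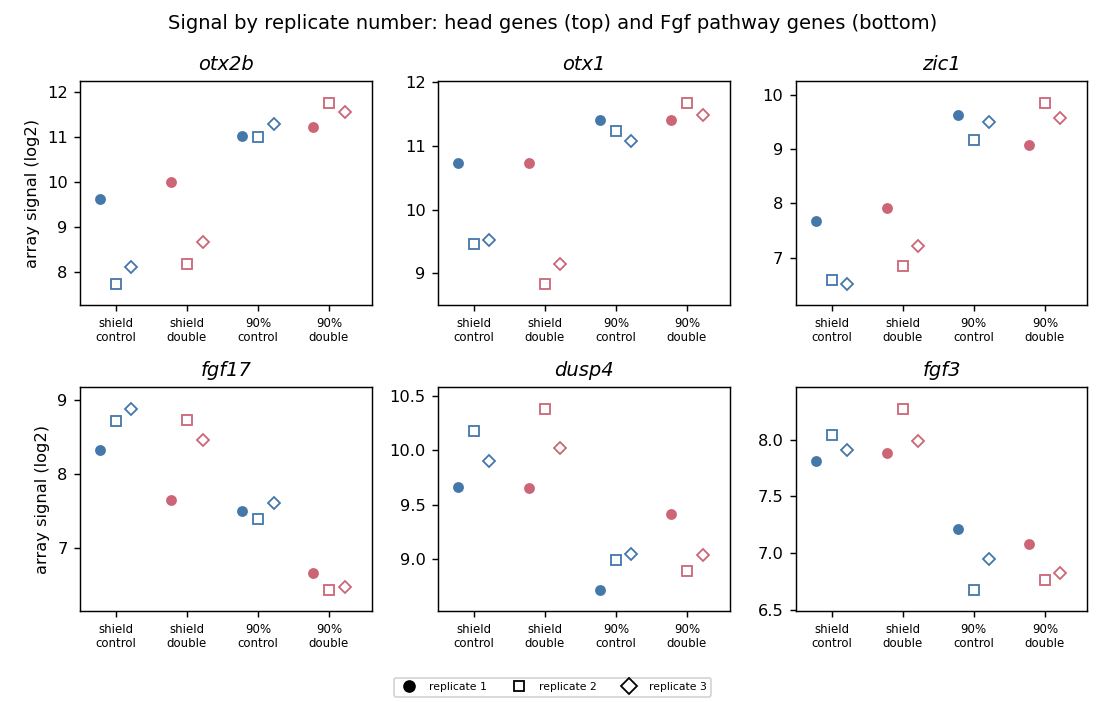
Log2 array signal (vertical axis) by replicate number in the 4 groups, for 3 head genes (top) and 3 Fgf pathway genes (bottom). Filled circles are samples numbered 1; at shield they lie nearest to the 90% epiboly values in both treatments for all 6 genes, which were chosen for display after their values were seen; 5 other Fgf genes that passed between the stages, *dusp11* and *fgfr4* among them, had number 2 or 3 nearest in both treatments.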

How the data were processed

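The authors measured total RNA of whole embryos, labelled with Alexa Fluor, on single-colour Agilent zebrafish arrays (V3). They deposited log2 values of 45220 features per array, normalized between the arrays; how background and scale were handled is not given in the sources used here, and scanner output was not used here. Symbols of 26855 features came from the platform annotation and were updated through a RefSeq gene table (26842 matched). No sequence is printed because no sequence table was at hand.

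limma 3.58.1 in R 4.3.3 was fitted to all 12 arrays with 1 mean per group (8 residual and 5.32 prior degrees of freedom), with Benjamini-Hochberg adjustment over all features, a threshold of 0.05 and no filter; 95% intervals are unadjusted. The script was tested on simulated data for the comparison at shield. It recovered 2 of 50 log2 changes of 0.5, 24 of 50 of 1, 47 of 50 of 2 and 50 of 50 of 4, with 4 calls among unchanged features. Deviations from the group mean were correlated between same-numbered shield samples (0.342, 0.348 and 0.297), with -0.244 to -0.0621 between different numbers. Deviations cancel within a group, so positive values for the same number bring negative ones between different numbers. The shield numbers were read as pairs from these same values, and the labels do not give the pairing. At 90% epiboly the same-numbered values were 0.197, 0.0765 and 0.414, also above those between different numbers (-0.274 to 0.0313). They were weaker in part and were not taken as paired, a choice that bears on the call of *fgf17*. The main fit used no pairing at either stage.

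Named are genes that passed between treatments, core pathway genes, the 10 largest stage changes in controls and the 3 smallest p per treatment comparison; other names were chosen after their values were seen. The genes, lists and alternatives were chosen with earlier results of these data known. Tables and figures used Python 3.11.15 and matplotlib 3.10.9.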

Additional observations from a re-analysis of the deposited data

How the results depend on the processing

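Each alternative changed 1 choice, except that the unadjusted t-test changed both the test and the adjustment and that trend and robust variance were set together. Between the treatments, 0 Fgf genes lower at shield became 3 with the methods' t-test unadjusted (*dusp6*, *fgf10b*, *spry2*) and 1 with members taken by current symbol (*dusp23a*). At 90% epiboly, 0 lower became 1 with each pair of groups fitted on its own arrays, 1 with the replicate block, 1 with both shield arrays numbered 1 left out (*fgf17* each time), 2 with array weights (*fgf17* and *spry2*) and 6 with the unadjusted t-test, and 0 higher became 1 with array weights (*fgfrl1b*) and 2 with the unadjusted t-test. With each array left out in turn, the count at 90% epiboly was 0 to 1 lower (*fgf17*, without shield double MO replicate 1) and 0 to 1 higher (*fgfrl1b*, without 90% epiboly double MO replicate 1). The unadjusted t-test also called many features over the whole array. Of all 45220 features, in both directions together, it called 2718 at shield and 3432 at 90% epiboly. The main fit called 219 and 319. The member counts under the unadjusted t-test are to be read against these. The replicate block was fitted within each stage for the treatment comparisons. It gave *fgf17* an adjusted p of 0.0248 (limma) at 90% epiboly, where the numbers are not taken as pairs. For the stage comparisons the effect of each number was shared by both stages. That block ended the call of *fgf12a* between the stages in controls (limma adjusted p = 0.0667). No other call changed.

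Between the stages in controls, the 6 lower became 0 with the adjusted t-test and 3 to 6 with an array left out (3 without 90% epiboly control MO replicate 2 or 3). The 5 higher became 2 with own arrays, 0 with the adjusted and 8 with the unadjusted t-test, and 1 to 5 with an array left out (1 without shield control MO replicate 3). In double morphants, the 4 lower became 0 with the adjusted t-test and 2 to 5 with an array left out, and the 4 higher became 0 with the adjusted and 10 with the unadjusted t-test and 2 to 4 with an array left out. Between the stages the unadjusted t-test called 9201 of all 45220 features in controls and 10306 in double morphants, in both directions together. The adjusted t-test called 128 and 473, and the main fit 5773 and 5914. The member counts under both t-tests are to be read against these. *fgf3*, *fgf17* and *fgf13a* in both treatments, *dusp4* in controls and *fgfr2* in double morphants passed with each array left out.

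Of 3714 values of the named genes under the alternatives, 3592 stayed on the same side of the threshold, 93 no longer passed, 29 newly passed and 0 called values changed sign; 163 values that never passed changed sign. The adjusted t-test and the fit on own arrays were not run for the interaction. The causes were not tested. With 3 arrays per group the precision is limited, and the signal over background is unknown.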
